A study of Homo sapiens with 2 samples.

Results

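Described here are 10 genes of the BCL2 family of apoptosis regulators, chosen by symbol: the pro-survival genes BCL2L1, MCL1 and BCL2L12, and the pro-death genes BAK1, BID, BAD, BIK, BMF, BCL2L11 and BCL2L13. They were 10 of the 19775 genes for which a probe set on the array names that gene alone, and 32 of the 54675 probe sets. The study built a method to find hub genes in the expression changes that anticancer drugs cause, and the knockdown of MYC, one such hub, was its laboratory test in HT-29, a human colorectal adenocarcinoma line. The arrays compared here are 1 of HT-29 cells transfected with a pool of siRNAs against MYC and 1 of HT-29 cells transfected with a non-targeting pool, each at 20 nM, with 24 h of transfection and use after 48 h. The treatment field of the control sample reads None, whereas the protocol and the paper name the non-targeting pool, so the array is called control siRNA. Whether the 48 h include the transfection is not stated.

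The BCL2 family decides whether the outer membrane of the mitochondria stays intact during stress. The pro-death effectors, such as BAK1, open pores in that membrane and release cytochrome c. Pro-survival proteins such as BCL-XL and MCL1 hold the effectors back, and BH3-only proteins such as BIM and BID bind either side to start the process. MYC is known to make cells more prone to apoptosis in part through this family, and the survival of intestinal epithelial cells is known to need BCL-XL and MCL1.

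Each value is a MAS5 signal, a brightness on a linear scale that the authors set to a mean level of 100 on each array. Signals under 50 were set to 50, the floor used by the study, before the log2 ratio of the MYC siRNA to the control array was taken, and no ratio is given where both arrays were at or under 50. A gene is represented by its brightest probe set, and the others are given beside it. With a single array per condition nothing could be tested against replicates, and p-values are left out. As a measure of technical scatter, ratios from different probe sets for one gene had an SD of 0.27 for dim, 0.23 for middle and 0.18 for bright genes (log2 scale, 4040 genes with several probe sets). This scatter does not include the variation between cultures. Signals of different probe sets were not compared as levels.

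MYC itself, with 1 probe set, read 1963 on the control array and 1640 on the MYC siRNA array, 1.20-fold lower, and 21.6% of the genes above 50 had a lower ratio. This is RNA only. The paper shows the knockdown by immunoblot of MYC protein and reports lower expression of curated MYC target genes. Of 11 colorectal epithelial markers, 9 were above 50, and CDX1 and CDX2 were at or under 50 in both arrays. All measured markers of leukocytes and endothelium were at or under 50 in both arrays, with summed signals of 34.5 (leukocytes) and 28.6 (endothelium) on the control array and 36.6 and 18.1 on the MYC siRNA array. Of 4 fibroblast markers only COL1A1 was above 50, at 94.7 on the control and 78.9 on the MYC siRNA array. The 3' to 5' signal ratio, a sign of RNA quality, was at most 1.16 for ACTB and GAPDH in both arrays.

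BCL2L1, which encodes BCL-XL, was the member with the largest difference in its brightest probe set, 1.57-fold higher with MYC siRNA. RNA of whole cultures was measured, so a different share of cells of a kind and a different amount of RNA per cell cannot be told apart. MCL1 was nearly level and BCL2L12 was slightly lower. Among the pro-death genes, BIK, BAD, BCL2L13 and BAK1 were higher by 1.24-fold to 1.37-fold in their brightest probe sets, BID was nearly level, and BMF was below the floor in both arrays. BCL2L11, which encodes BIM, was nearly level in its brightest probe set, but another of its probe sets was 2.24-fold lower and the mean log2 ratio over its 3 probe sets above 50 was -0.42. The ranges of the pro-survival and the pro-death genes overlapped.

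Of the 10 members, 9 were above 50 in at least 1 array. Of these, 6 were higher and 3 lower with MYC siRNA, where 53.5% of all 8917 genes above 50 were higher. By at least 1.5-fold, 1 of the 9 members was higher and 0 were lower, where 10.4% of all genes were higher and 5.72% lower by that fold. These shares lie near the background. The median log2 ratio was 0.31 over the 9 members and 0.03 over all genes. It was -0.06 over the 3 pro-survival genes, with a range of -0.26 to 0.65, and 0.33 over the 6 measured pro-death genes, with a range of -0.12 to 0.45. The pro-survival median turned to 0.17 without probe sets able to bind several transcripts, which leaves BCL2L12 unmeasured, and to 0.29 without BCL2L12. In the former, MCL1 rests on a probe set close to the floor, at 68.0 on the control and 54.6 on the MYC siRNA array. The pro-survival median was 0.03 after either quantile normalization or loess. The pro-death median dropped to 0.12 with the mean ratio over probe sets above 50 and to 0.14 with the mean signal over all probe sets.

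By probe set, 21 of the 32 were above 50, and each of the 21 was above 50 in both arrays. Of the 21, 13 were higher and 8 lower with MYC siRNA, with a median log2 ratio of 0.04. That median was 0.04 both for the 9 pro-survival and for the 12 pro-death probe sets, so the gap between the gene medians was not seen over probe sets. By the DEG rule of a ratio of at least 2 or at most 0.5, 1 member probe set was an UP DEG and 1 a DOWN DEG. The background over 17127 probe sets above 50 was 2.19% UP and 0.607% DOWN. The UP DEG belonged to BCL2L1 and was lost in 4 of 6 processing alternatives, in which its log2 ratio was at least 0.98. The alternatives that kept it only moved the floor, which lay below both its signals and so could not change its ratio. The call was thus lost, by a small margin, in every alternative able to change it. The DOWN DEG belonged to BCL2L11 and was lost in 1 of 6, at -0.45 with a floor of 100. These alternatives were chosen after seeing the data.

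**Figure D1:**
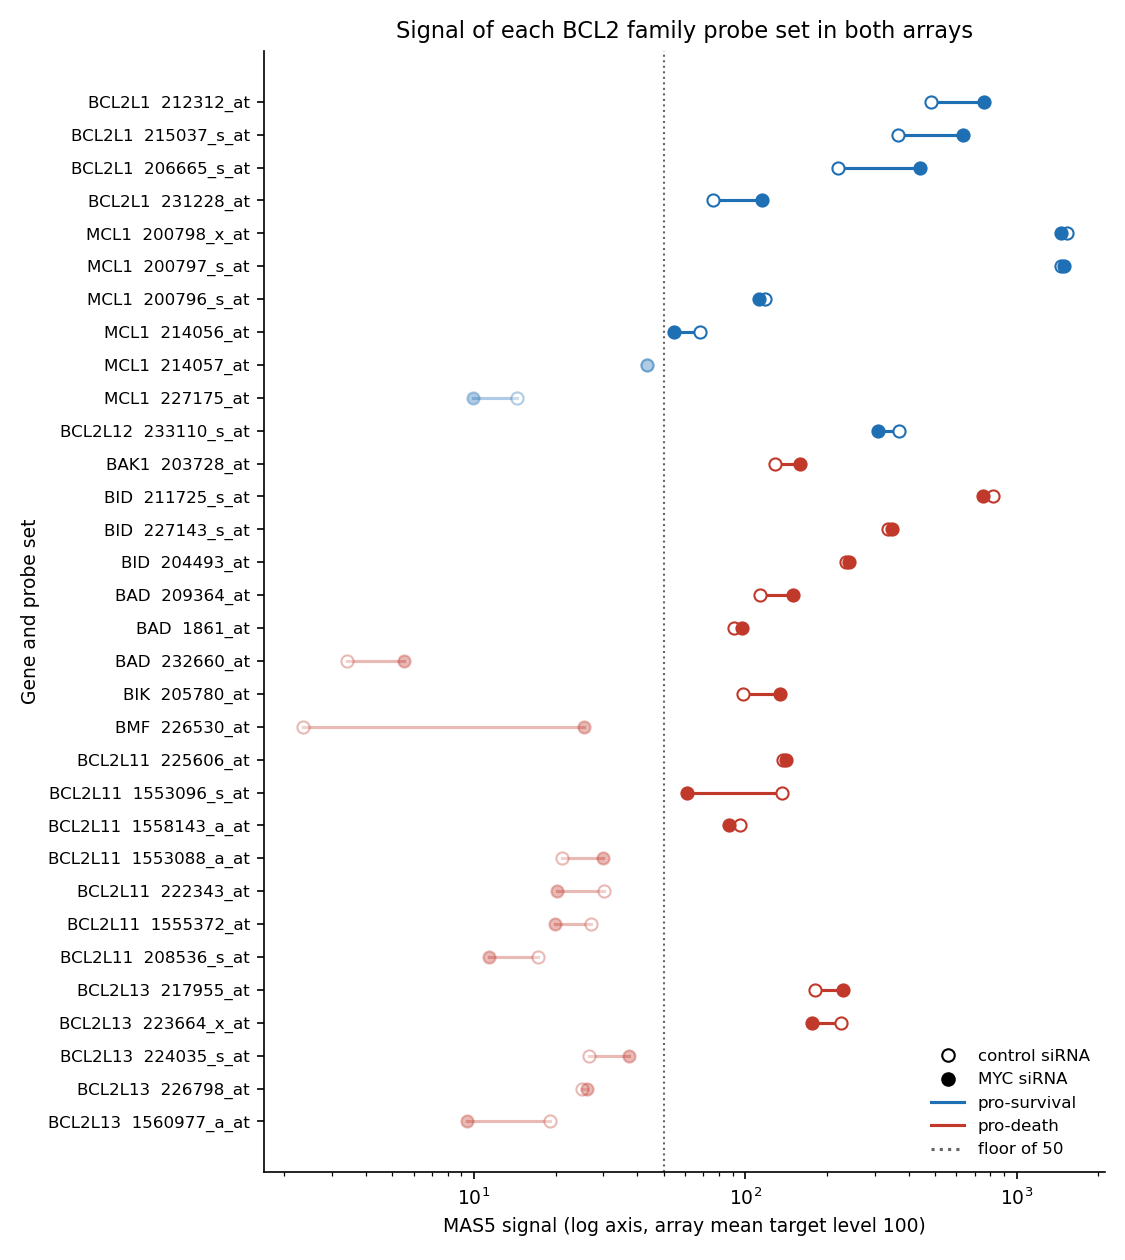
MAS5 signal (x axis, log scale) of each of the 32 probe sets of the 10 genes (y axis) with control siRNA (open circles) and MYC siRNA (filled circles), pro-survival genes in blue and pro-death genes in red. The dotted line marks 50, and faded pairs are at or under it in both arrays. All 4 pairs of BCL2L1 run to the right, whereas the brighter pairs of MCL1 and those of BID nearly coincide.

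BCL2L1 encodes the membrane protein BCL-XL, which binds BAK1 and BH3-only proteins, and by alternative splicing also a shorter pro-death form. Its brightest probe set read 483 on the control array and 756 on the MYC siRNA array, 1.57-fold higher. A log2 ratio of 0.65 was exceeded by 762 of the 8917 genes. The next by brightness read 366 and 635, which is 1.74-fold higher. Another read 220 and 441, which is 2.0-fold higher and just reaches the rule for an UP DEG. The dimmest read 76.3 and 115, which is 1.51-fold higher.

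All 4 probe sets of BCL2L1 were thus higher by at least 1.5-fold, with a mean log2 ratio of 0.76 ± 0.18 (SD, n = 4 probe sets). With all genes split by brightness into 5 equal groups, the genes in its group had a median of -0.01. The platform annotation does not say which probe set reads the long and which the short form, so their shares were not separated. The log2 ratio of BCL2L1 exceeded that of MCL1 by 0.71 and that of BAK1 by 0.33. It exceeded that of BAD by 0.24 and that of BIK by 0.19. The gap to BAK1 is not much larger than the technical SD of 0.27 found for dim genes such as these 3, and the gaps to BAD and BIK are smaller than it.

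The promoter of BCL2L1 is shown because this gene had the highest ratio, and MYC binds the E-box CACGTG. RefSeq gives the gene 2 windows at different starts, and neither holds CACGTG. The 250 bases before the more upstream start (GRCh38.p14, chr20:31723964-31724213, minus strand) are therefore all in lower case:
BCL2L1 upstream: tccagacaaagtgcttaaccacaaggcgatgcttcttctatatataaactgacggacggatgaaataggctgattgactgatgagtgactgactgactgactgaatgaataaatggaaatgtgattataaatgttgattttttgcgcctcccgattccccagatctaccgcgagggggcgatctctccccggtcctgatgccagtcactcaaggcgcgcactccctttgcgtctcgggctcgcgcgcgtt

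Promoter windows of 250 bases before to 50 after a RefSeq start were found for 8 of the 10 genes, 18 windows in all. CACGTG, which reads the same on both strands, was found in 2 of the 18 windows, both of BID. They overlap and hold the same E-box, 106 and 47 bases before their starts, within chr22:17774072-17774101 on the minus strand (GRCh38.p14). The E-box is in capitals:
BID E-box: ttgtgtcctctcCACGTGgcctggggattc
One gene of 8 is 12.5%, where 8.77% of the 27305 genes with a window and 13.6% of the 7482 such genes above 50 hold CACGTG. The match describes the letters of these windows only, and BID was among the members nearest to no difference.

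MCL1 encodes a short-lived pro-survival protein that holds BAK1 and BIM in check. Its brightest probe set went from 1527 on the control array to 1462 on the MYC siRNA array, 1.04-fold lower. The next, almost as bright, went from 1463 to 1499, 1.02-fold higher, so the direction of MCL1 depends on the probe set. A dimmer one was 1.05-fold lower, from 118 to 112, and one close to the floor 1.24-fold lower, from 68.0 to 54.6. The remaining 2 were at or under 50 in both arrays. The log2 ratio of -0.06 is close to the median of -0.10 of the brightest of the 5 groups, in which MCL1 lies.

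BCL2L12 is an atypical family member that has been described to restrain apoptosis downstream of the mitochondria. Its single probe set went from 368 on the control array to 308 on the MYC siRNA array, 1.19-fold lower. The log2 ratio of -0.26 is about as large as the SD of 0.23 between probe sets of genes of middle brightness.

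**Figure D2:**
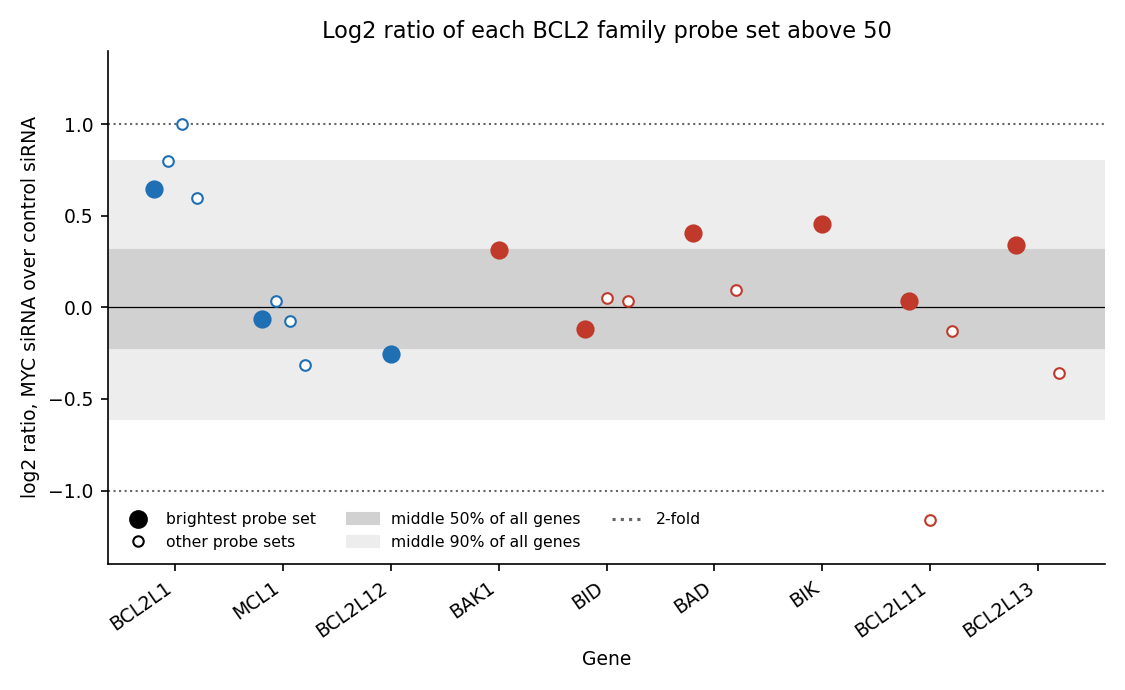
Log2 MYC siRNA to control siRNA ratio (y axis) of the 21 member probe sets above 50, by gene (x axis), with the brightest probe set filled, the others open, pro-survival genes in blue and pro-death genes in red. Grey bands hold the middle 50% and 90% of all 8917 genes above 50, and dotted lines mark 2-fold. The 4 probe sets of BCL2L1 (0.60 to 1.0) lie above the darker band, and those of BCL2L13 and BCL2L11 disagree among themselves.

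Among the effectors, BAK1 encodes one of the proteins that form the membrane pore. Its single probe set went from 128 on the control array to 159 on the MYC siRNA array, 1.24-fold higher. Its log2 ratio of 0.31 was close to the upper quartile of all genes, which was also 0.31, and the median of its group by brightness was 0.09.

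Of the BH3-only genes, BIK encodes a protein of the endoplasmic reticulum. Its single probe set went from 98.2 on the control array to 134 on the MYC siRNA array, 1.37-fold higher, the highest ratio among the measured pro-death members. BAD encodes a BH3-only protein that binds BCL-XL unless phosphorylated and held by 14-3-3 proteins. Its brightest probe set went from 113 to 150, 1.33-fold higher, and the next from 90.8 to 97.0, 1.07-fold higher. The mean over both was 0.25 ± 0.22 (SD, n = 2 probe sets). The remaining probe set of BAD, at 3.42 and 5.53, was under the floor in both arrays.

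BID encodes the protein that caspase-8 cleaves to link death receptors to the mitochondria. Its brightest probe set went from 815 on the control array to 750 on the MYC siRNA array, 1.09-fold lower. The other two went from 336 to 349 and from 235 to 241, which is 1.04-fold and 1.03-fold higher. The log2 ratios of the 3 lay between -0.12 and 0.05, each nearer to 0 than the SD of 0.18 between probe sets of bright genes.

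BCL2L11 encodes BIM, which binds pro-survival proteins such as BCL-XL and MCL1 and is made in several isoforms. Its brightest probe set was nearly level, at 138 on the control and 141 on the MYC siRNA array. The dimmest above 50 was 1.09-fold lower, from 95.5 to 87.3. In contrast, the probe set between them went from 136 to 60.9, 2.24-fold lower, and was the only DOWN DEG among the members. The SD over these 3 probe sets was 0.65 on the log2 scale, well above the 0.27 of dim genes. The other 4 probe sets, between 11.4 and 30.2, were under the floor in both arrays. Whether the probe set that differed reads particular isoforms was not tested.

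BMF encodes a BH3-only protein linked to the cytoskeleton and to death after detachment. Its single probe set read 2.34 on the control array and 25.4 on the MYC siRNA array, both under the floor, so no fold is given.

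BCL2L13, also called BCL-rambo, is an atypical member of the mitochondrial outer membrane that is also known as a receptor for mitophagy, the removal of mitochondria. Its pair of probe sets above 50 went opposite ways. The brighter by its mean went from 181 on the control array to 228 on the MYC siRNA array, 1.26-fold higher, whereas the other went from 225 to 176, 1.28-fold lower. Their mean signals of 204 and 201 were nearly equal, so which of them represents the gene, and with it the direction, rests on a small margin. The other 3 probe sets were under the floor in both arrays. In RefSeq, BID is the next protein-coding gene after BCL2L13.

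**Figure D3:**
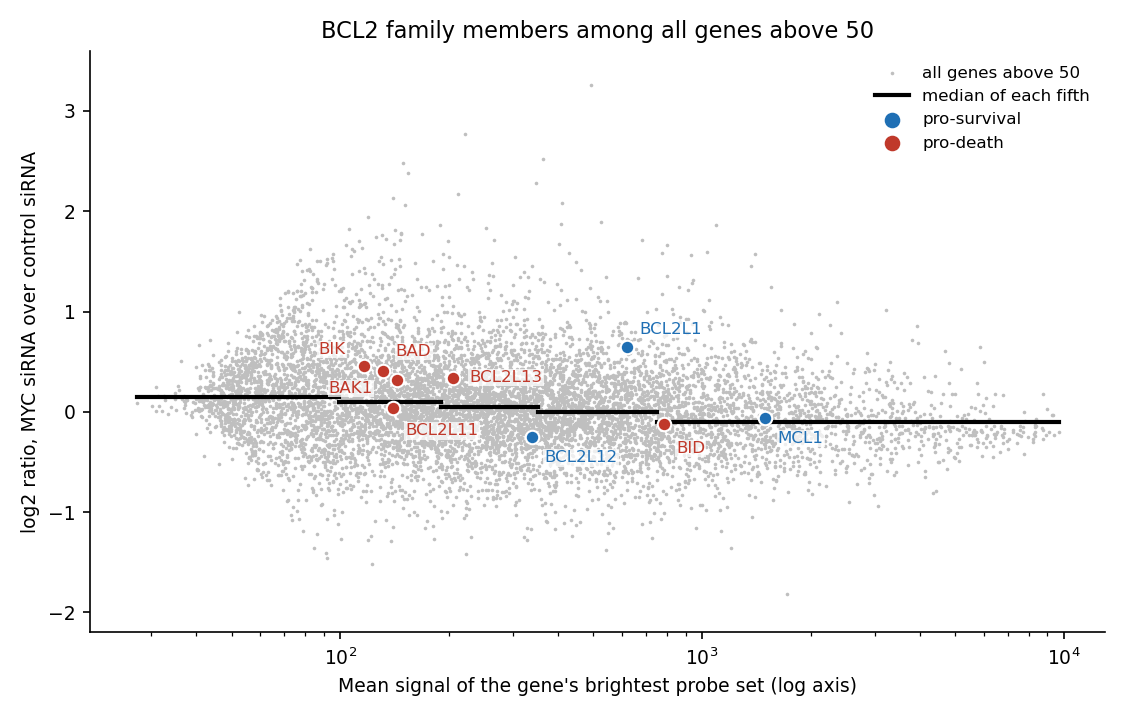
Log2 MYC siRNA to control siRNA ratio (y axis) against the mean signal of the brightest probe set (x axis, log scale) for all 8917 genes above 50 (grey), with the 9 measured members marked (blue pro-survival, red pro-death). Black bars are the medians of 5 equal groups by brightness, which fall from 0.15 to -0.10. BCL2L1 (0.65) lies above the bar of its group, and MCL1 and BID lie near theirs.

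Across all genes the ratio fell with brightness, from a median of 0.15 in the dimmest of the 5 groups to -0.10 in the brightest. BIK, BAD, BAK1 and BCL2L11 lay in the next-dimmest of these groups, whose median was 0.09. After loess of the ratio on the mean signal, which takes out this trend, the log2 ratios were 0.69 for BCL2L1, 0.40 for BIK, 0.36 for BAD, 0.31 for BCL2L13 and 0.27 for BAK1. BCL2L12 was at -0.26 and BID at -0.07. MCL1 and BCL2L11 changed sign, to 0.03 and -0.01.

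Of the rest of the BCL2 family, few genes could be measured in HT-29 cells. BCL2 itself was between 1.73 and 13.2 in its 4 probe sets, and BCL2A1, BCL2L10, HRK, BCL2L14 and BNIP3 were also at or under 50 in both arrays. BCL2L2, which encodes the pro-survival BCL-W, was nearly level, from 198 on the control array to 184 on the MYC siRNA array, 1.07-fold lower. Of 4 measured pro-death genes, 3 were higher and 1 lower, with a median log2 ratio of 0.20. For this and the lists below, 53.5% of all 8917 genes above 50 were higher, with a median of 0.03. BAX, the other pore-forming effector, was 1.06-fold higher, from 339 to 357, and BOK, a related protein, 1.25-fold higher. PMAIP1, which encodes NOXA, a partner of MCL1, was 1.06-fold lower in its brightest probe set and 1.35-fold higher, from 86.0 to 116, in the other. BNIP3L, like BCL2L13 a receptor for mitophagy, went from 226 to 429, 1.90-fold higher, and its other probe set was 2.06-fold higher, from 96.3 to 198.

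Downstream of the mitochondria, 6 of 9 genes of mitochondrial release and the apoptosome were lower with MYC siRNA, with a median log2 ratio of -0.16. CYCS, which encodes cytochrome c, went from 5702 to 3831, 1.49-fold lower. VDAC3, a channel of the outer membrane, was 1.54-fold lower, from 1741 to 1130, but 1.22-fold lower in another probe set, and the protease HTRA2 was 1.33-fold lower. APAF1, which binds cytochrome c to form the apoptosome, was 1.37-fold higher, from 90.4 to 124. DIABLO, an antagonist of IAP proteins, was 1.22-fold higher, and AIFM1 was level at 368 and 371.

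All 5 caspases above 50 were higher with MYC siRNA, with a median log2 ratio of 0.42. CASP4, an inflammatory caspase, was 1.54-fold higher, from 183 to 283. CASP2 went from 857 to 1255, 1.47-fold higher, and its other 6 probe sets were also higher, by 1.09-fold to 1.73-fold. CASP8, the initiator at death receptors, was 1.26-fold higher. Of the inhibitor of apoptosis proteins, 3 of 4 measured genes were higher (median 0.26): BIRC2, which encodes cIAP1, by 1.39-fold, XIAP by 1.25-fold and BIRC6 by 1.14-fold. XIAP was higher in all 6 of its probe sets above 50, by 1.25-fold to 1.66-fold. BIRC5, which encodes survivin, was 1.29-fold lower, from 810 to 628, and lower in all 3 of its probe sets above 50.

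In the death receptor pathway, 7 of 9 measured genes were higher and 2 lower (median 0.23). The adaptor TRADD was 1.49-fold higher, from 88.6 to 132, although another of its probe sets was 1.05-fold lower. The receptor TNFRSF21 was 1.33-fold higher, from 2482 to 3301, and FADD, the adaptor of caspase-8, 1.27-fold higher. Both TRAIL receptors with a death domain were lower, TNFRSF10A by 1.41-fold, from 343 to 243, and TNFRSF10B by 1.22-fold in its brightest probe set. TNFRSF10A was lower in all 3 of its probe sets above 50, but only 1.05-fold in the next by brightness, from 238 to 228. Its dimmest, from 58.8 to 48.4, lay at the floor. TNFRSF10B was lower in 2 of 3, but its dimmer probe sets, close to the floor, were nearly level (55.2 to 54.0 and 55.7 to 55.8).

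The 19 genes listed as binding partners, modifiers or regulators of the members had a median of -0.04, with 7 higher and 12 lower. USP9X, which removes ubiquitin from MCL1, was 1.26-fold higher, and AKT1, a kinase of BAD, 1.37-fold higher, from 221 to 304. Of the 14-3-3 genes, YWHAH was 1.29-fold higher and YWHAE 1.15-fold lower. MTCH2, the mitochondrial receptor of BID, was 1.22-fold lower in its brightest probe set but 1.14-fold higher in another. DYNLL2, a dynein light chain that binds BMF, was 1.16-fold lower in its brightest probe set, although another was 1.58-fold higher. Over all 7 lists, 51 of 73 genes were measured, of which 28 were higher and 23 lower with a median of 0.08. By at least 1.5-fold, 2 were higher (BNIP3L and CASP4) and 1 was lower (VDAC3), to be read against the 10.4% and 5.72% of all genes given above.

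**Figure D4:**
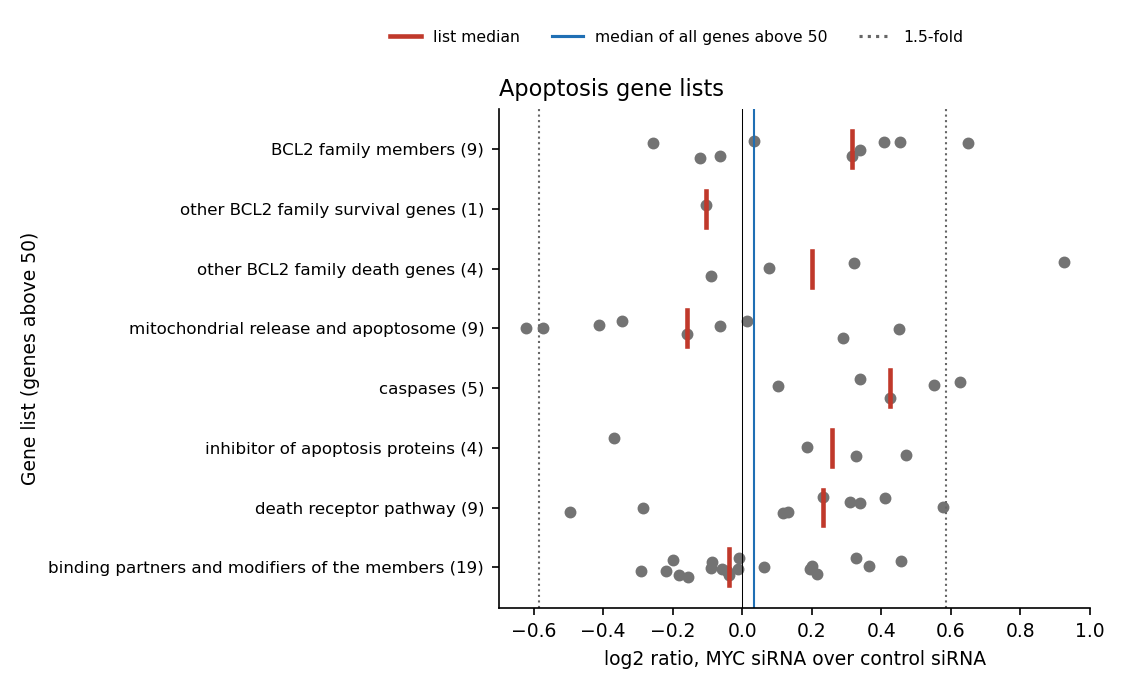
Measured genes (grey points) of the BCL2 family members and of 7 other apoptosis lists (y axis, gene numbers in brackets) by their log2 MYC siRNA to control siRNA ratio (x axis). Medians are the red bars, the blue line is the median of all genes above 50 (0.03) and dotted lines mark 1.5-fold. The caspases lie wholly to the right of 0, and the list of mitochondrial release has the lowest median, -0.16. The brightest of the 5 groups of all genes, in which CYCS and the VDAC genes lie, had a median of -0.10.

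BCL2L1 kept its ratio of at least 1.5-fold in each of the 11 processing alternatives, from 0.64 to 0.77 on the log2 scale, and BIK, BAD and BAK1 were higher in all 11. BCL2L12 was lower in the 10 alternatives that measured it. These counts include alternatives that could not change a given gene. For BCL2L1, the higher and lower floors, the other filters and the omission of probe sets able to bind several transcripts left the ratio unchanged. The alternatives able to change it gave the range of 0.64 to 0.77. BAK1, BIK and BCL2L12 have a single probe set each, so means over probe sets could not change their ratios. The direction of MCL1, BID, BCL2L11 and BCL2L13 differed between alternatives.

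**Figure D5:**
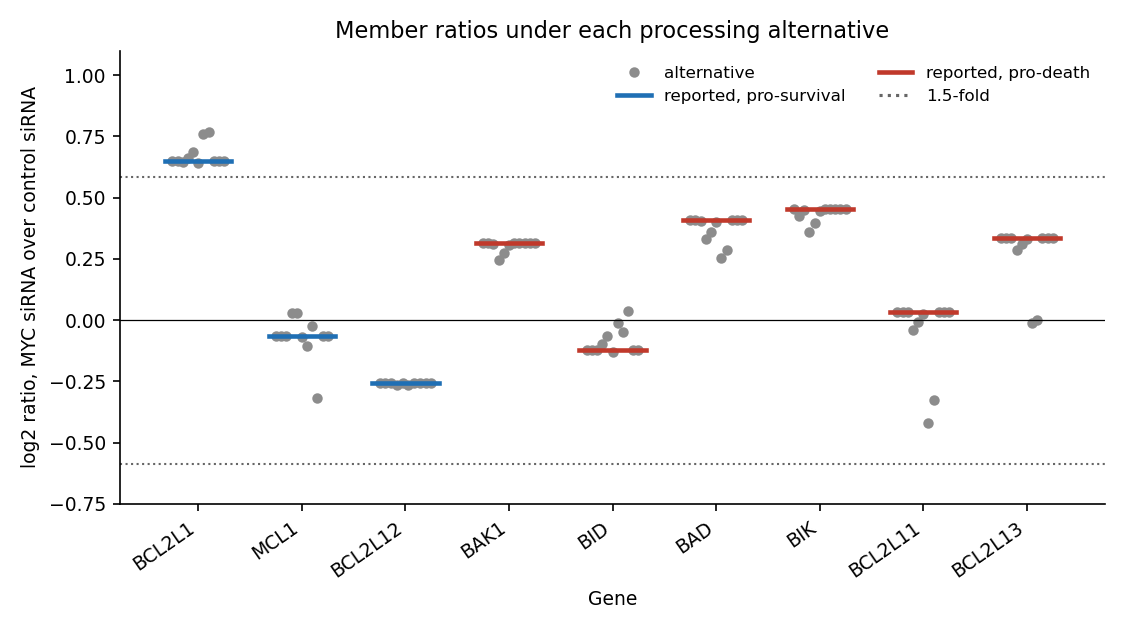
Log2 MYC siRNA to control siRNA ratio (y axis) of each measured member (x axis) as reported (coloured bars) and under each processing alternative (grey points; 10 for BCL2L12 and 11 for the others). Dotted lines mark 1.5-fold. BCL2L1 lies above the upper line throughout, and MCL1, BID, BCL2L11 and BCL2L13 have points on both sides of 0.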

How the data were processed

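HT-29 RNA was hybridized to Affymetrix Human Genome U133 Plus 2.0 arrays, 1 per condition. The intensity values that the authors deposited are MAS5 signals, computed with affy 1.40.0 per the labels and brought to a target level of 100; leaving out the highest and lowest 2% of probe sets, the mean was 100 in both arrays. No floor, logarithm or between-array step had been applied.

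Here signals under 50 were set to 50 and log2 ratios taken. The platform annotation gives 1 gene for 41097 probe sets and several for 1801, and does not list 11777. Symbols were updated through gene identifiers to RefSeq (GRCh38.p14), which also gave the promoter windows. MCL1 and BIK had no window in that table. The only statistics are ratios, counts and medians, because 1 array per condition gives no p-value and the number of arrays limits the precision. The calculations were tested on simulated data.

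The members and lists were chosen with earlier results of these data known. Named are MYC, all members, and up to 3 genes per list and direction with the largest ratio at a brighter signal of at least 100. BBC3, BIRC3 and RIPK1 had no probe set naming them alone and were not analysed here. Alternatives were floors of 25 and 100, no floor with 1 added, quantile normalization, loess (span 0.3), median centring, means over probe sets, omission of probe sets able to bind several transcripts, and other filters. Python 3.11.15, numpy 2.4.6, pandas 2.3.3, statsmodels 0.14.6 and matplotlib 3.10.9 were used.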

Additional observations from a re-analysis of the deposited data

How the results depend on the processing

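The median log2 ratio of the pro-survival genes, -0.06 as reported, was 0.17 without probe sets that can bind several transcripts and 0.29 without the atypical BCL2L12; it was 0.03 after quantile normalization or loess. That of the pro-death genes stayed between 0.12 and 0.33 over 12 alternatives. Of the measured members, 4 to 7 were higher over 11 alternatives, and 0 members reached 2-fold in place of 1 at 1.5-fold. With the mean over probe sets above 50 the ratios of BCL2L11 and BCL2L13 were -0.42 and -0.01, and with mean signals over all probe sets -0.33 and 0.00. MCL1 was -0.32 without probe sets that can bind several transcripts. There it rests on a probe set close to the floor (68.0 on the control and 54.6 on the MYC siRNA array), which also enters the median of 0.17. In a check chosen after seeing the data, the BCL2L1 probe set that was an UP DEG reached 2-fold in 2 of 6 alternatives (0.98 to 1.0), and the BCL2L11 probe set that was a DOWN DEG in 5 of 6, with -0.45 at a floor of 100. For BCL2L1, the alternatives that reached 2-fold only moved the floor, which could not change a probe set with both signals above it. Dim signals limit what can be said of BMF and of 11 member probe sets in all. No paired analysis was possible because each condition has 1 array.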
